A study of Mus musculus with 8 samples.

Results

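Type I interferon-stimulated genes are the genes that cells switch on when interferon alpha or beta binds its receptor. The 30 genes described here were chosen by name, as genes known for this response, out of 57132 genes in the deposited count table. Earlier results of these data were known when they were chosen. Each of the 30 was found in the table on 1 Ensembl identifier, and all 30 passed the filter on low counts that left 16588 genes for testing. Bulk RNA libraries had been made from subcutaneous tumours of KPC, a pancreatic cancer model of the mouse. In the PDT group (4 libraries) the mice had received targeted photodynamic therapy, in which an agent the labels call Ce6@D4-EV was given and followed by light. Ce6 is the usual short name of chlorin e6, which produces reactive oxygen species under light. In the PBS group (4 libraries) they had received PBS, a buffered saline. All 8 samples share the tumour model and site. The sources used here give neither strain, age, light dose and time from treatment to harvest nor whether the PBS mice were lit, and no label states that replicates were separate animals. P-values therefore measure the spread between these samples, which may be technical. Light without the agent, and the agent without light, were not analysed here. The design text of the series names cytosolic DNA sensing among the innate immune pathways it set out to study in treated tumours.

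As background, interferon alpha and beta bind a receptor made of Ifnar1 and Ifnar2, and the kinases Jak1 and Tyk2 then activate the factor ISGF3, which holds Stat2 and Irf9 and binds the interferon-stimulated response element (ISRE) in promoters. The induced proteins sense viral RNA, degrade it, block its translation or tag proteins with the ubiquitin-like protein Isg15, and some of them dampen the response. In tumours the programme is known as a product of DNA that reaches the cytosol, through cGAS and STING, and it is seen in tumour cells, macrophages and dendritic cells alike.

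The response element was looked for in the promoters of the 30 genes, since it is the sequence through which ISGF3 acts. RefSeq promoter windows (build GRCm38.p6, 250 bases before to 50 bases after the annotated start) were matched for 22 of the 30 by symbol. The motif searched was GAAA, any 2 bases and GAAA again, on both strands, with overlapping matches counted one by one. It was found in the windows of 13 of these 22 genes (59.1%), against 1079 of 27025 genes with a window (3.99%). The gamma-activated site, TTC, any 3 bases and GAA, which reads the same on both strands and serves the response to interferon gamma, was found in 4 of the 22 (18.2%) and in 2582 of the 27025 (9.55%). The 200 bases before the start are shown for the 3 genes with the smallest p among those with a window, Isg15, Bst2 and Oas1a, and for the paralogues Ifit3 and Ifit3b, with the response element in capitals. In Ifit3 and Ifit3b the element lies on the other strand, so that the capitals show its reverse complement.
Isg15 (chr4:156200819-156201018, minus strand): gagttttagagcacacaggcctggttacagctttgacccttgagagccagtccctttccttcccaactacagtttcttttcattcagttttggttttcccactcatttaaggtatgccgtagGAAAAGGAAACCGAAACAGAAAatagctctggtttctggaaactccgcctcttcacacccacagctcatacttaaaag
Bst2 (chr8:71537473-71537672, minus strand): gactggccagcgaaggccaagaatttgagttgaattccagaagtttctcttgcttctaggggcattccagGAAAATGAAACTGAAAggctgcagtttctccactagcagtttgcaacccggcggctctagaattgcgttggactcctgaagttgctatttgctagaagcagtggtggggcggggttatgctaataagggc
Oas1a (chr5:120907526-120907725, minus strand): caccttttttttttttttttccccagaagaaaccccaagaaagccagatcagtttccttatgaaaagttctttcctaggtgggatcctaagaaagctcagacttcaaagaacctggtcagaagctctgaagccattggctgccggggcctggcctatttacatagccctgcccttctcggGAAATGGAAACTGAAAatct
Ifit3 (chr19:34583329-34583528, plus strand): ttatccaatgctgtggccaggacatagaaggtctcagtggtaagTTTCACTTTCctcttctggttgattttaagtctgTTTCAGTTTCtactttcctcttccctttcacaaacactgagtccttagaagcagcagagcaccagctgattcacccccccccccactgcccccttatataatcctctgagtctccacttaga
Ifit3b (chr19:34607757-34607956, plus strand): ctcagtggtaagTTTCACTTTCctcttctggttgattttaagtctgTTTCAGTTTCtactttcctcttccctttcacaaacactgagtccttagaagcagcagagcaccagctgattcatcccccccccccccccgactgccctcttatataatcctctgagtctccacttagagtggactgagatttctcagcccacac
In Isg15 the matches overlap, beginning 78, 72 and 66 bases before the start. Those of Bst2 begin 130 and 124 bases before it and those of Oas1a 20 and 14 bases before it. Ifit3 and Ifit3b hold the same pair of elements in the same spacing. Of the 260 bases aligned without a gap in their 300-base windows, 259 (99.6%) were identical, and bases in gaps were not counted. The other genes with a match were Stat2, Ifih1, Ddx60, Oas3, Ifit1, Rsad2, Eif2ak2 and Trim30a. The median log2 difference, PDT minus PBS, was 0.34 over the 13 genes with a match and 0.10 over the 9 genes with a window and no match. It was 0.57 over the 8 genes without a window. Only exact matches were counted, so a window without a match may still hold a variant of the element. Differences between these classes of genes were not tested.

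The libraries held 39026840 to 48804713 reads in PDT and 35742024 to 40337306 reads in PBS. Levels are given in CPM, the reads of a gene scaled to the TMM-adjusted library size. PDT 4 stood apart in the share of reads on the 18S ribosomal RNA row Rn18s-rs5, at 1.34% against 0.275% to 0.363% in the other PDT libraries and 0.241% to 0.546% in PBS. PBS 1 stood apart on the first principal component of all genes, at −111.5 against −8.53 to 4.32 in the other PBS libraries and 16.1 to 37.2 in PDT. Epithelial markers were abundant, Krt8 at 1230 to 2402 CPM in PDT and 1400 to 3091 CPM in PBS, and the pancreatic acinar genes Amy2a5 and Pnlip were at 0 in all 8. The labels call the tissue sorted and name no gate. Defining markers of fibroblasts (Col1a1), macrophages (Adgre1) and endothelium (Pecam1) were also present. In such bulk samples fewer cells of a type and less RNA per cell cannot be told apart.

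Of the 30 interferon-stimulated genes, 26 had a positive log2 difference, PDT minus PBS, and 0 passed the quasi-likelihood test of edgeR at an adjusted p of 0.05, which called 0.235% of all tested genes. The direction was shared by far more of the 30 genes (86.7%) than of all tested genes (49.8%), and their median log2 difference was 0.31 against −0.0022 over all tested genes. At an unadjusted p under 0.05 there were 7 members (23.3%), all higher in PDT, where 8.63% of all tested genes were higher at that level. These were Isg15, Bst2, Oas1a, Oas2, Rtp4, Dhx58 and Parp14. DESeq2's Wald test called 5 of the 30 (Isg15, Bst2, Oas1a, Oas2 and Rtp4), with a background of 3.79% of genes called higher, and limma-voom called 0 with a background of 0.603%. In 3 members, Isg15, Bst2 and Oas2, the lowest PDT library was above the highest PBS library, as in 5% of all tested genes. The same shares of all tested genes stand beside the counts by family and list below. The list thus leaned upward, while most of its single genes did not separate the groups.

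**Figure D1:**
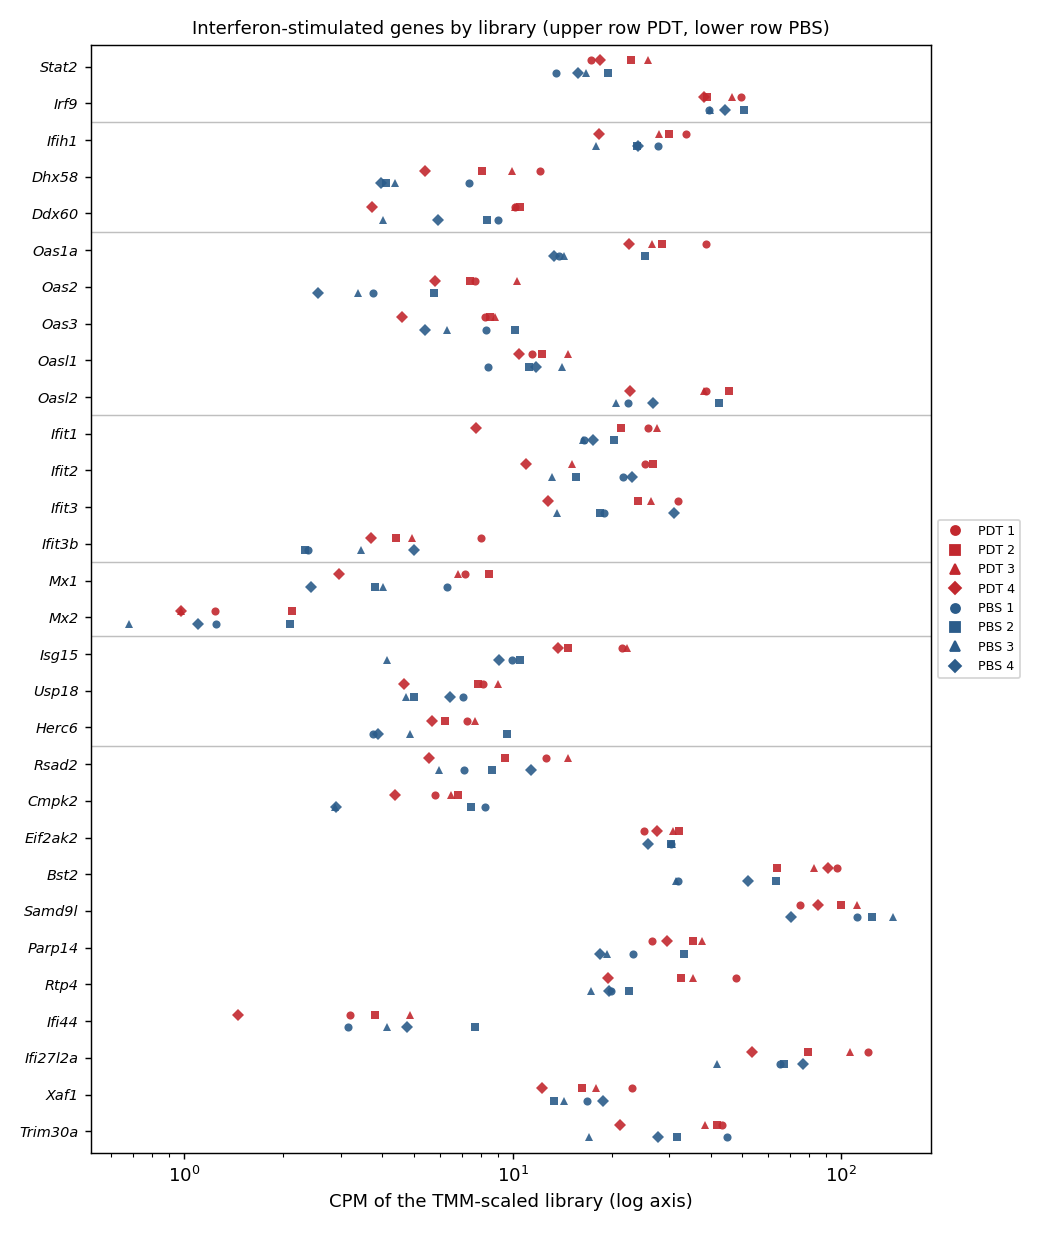
Expression of the 30 interferon-stimulated genes in each library, in CPM on a log axis, with PDT in the upper row (red) and PBS in the lower row (blue) of each gene and 1 symbol shape per replicate number. Isg15, Bst2 and Oas2 are the genes whose PDT points all lie to the right of the PBS points, and the red diamond, PDT 4, is the lowest PDT library in 25 of the 30 genes.

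Among the signalling factors, the difference of Stat2 was positive and that of Irf9 was near 0. Stat2 (ENSMUSG00000040033), which carries the activation domain of ISGF3, was at 17.3, 22.9, 25.9 and 18.4 CPM in PDT 1 to PDT 4, against 13.6, 19.5, 16.7 and 15.8 CPM in PBS 1 to PBS 4. PDT 2 and PDT 3 were above the PBS range and PDT 1 and PDT 4 were inside it, with a log2 difference of 0.36 ± 0.18 (SE, adjusted p = 0.349). Irf9 (ENSMUSG00000002325), the DNA-binding subunit of ISGF3, was at 49.5, 39, 46.4 and 38.2 CPM in PDT 1 to PDT 4, against 39.5, 50.7, 39.9 and 44.2 CPM in PBS 1 to PBS 4. The groups overlapped throughout, and its log2 difference of −0.01 ± 0.14 (SE) had a 95% interval of −0.31 to 0.29 and an adjusted p of 0.982 by edgeR. In edgeR 0 of the pair had an unadjusted p under 0.05, and DESeq2 and limma-voom called 0.

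Among the sensors of viral RNA, Dhx58 was the one with an unadjusted p under 0.05. Dhx58 (ENSMUSG00000017830) encodes LGP2, a helicase that tunes signalling by the other sensors. It was at 12.1, 8.05, 9.95 and 5.42 CPM in PDT 1 to PDT 4, against 7.35, 4.12, 4.39 and 3.98 CPM in PBS 1 to PBS 4. Of the PDT libraries, PDT 4 was below PBS 1 and the others were above all of PBS, with a log2 difference of 0.84 ± 0.31 (SE, adjusted p = 0.204). Ifih1 (ENSMUSG00000026896) encodes MDA5, the sensor of long double-stranded RNA, and averaged 27.4 ± 6.5 CPM in PDT and 23.4 ± 4.03 CPM in PBS (SD, n = 4 each), a log2 difference of 0.23 ± 0.20 (SE, adjusted p = 0.636). Ddx60 (ENSMUSG00000037921), a helicase proposed to assist these sensors, was at 10.2, 10.6, 10.2 and 3.74 CPM in PDT 1 to PDT 4, against 9.01, 8.34, 4.05 and 5.93 CPM in PBS 1 to PBS 4. The libraries PDT 1 to PDT 3 were nearly equal and above every PBS library, whereas PDT 4 was below every PBS library. Its log2 difference was 0.34 ± 0.36 (SE, adjusted p = 0.705) with all libraries and 0.60 without PDT 4. DESeq2 and limma-voom called 0 of the 3 sensors.

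The Oas genes encode enzymes that sense double-stranded RNA and make oligoadenylates, the activators of RNase L, and the related Oasl genes. Oas2 and Oas1a had the largest differences, with fitted folds of 2.02 and 1.74, and the other 3 genes differed less. Oas2 (ENSMUSG00000032690) was at 7.67, 7.44, 10.3 and 5.82 CPM in PDT 1 to PDT 4, against 3.75, 5.77, 3.39 and 2.56 CPM in PBS 1 to PBS 4, so that the lowest PDT library was just above the highest PBS library. Its log2 difference was 1.01 ± 0.31 (SE, adjusted p = 0.142), and DESeq2 gave an adjusted p of 0.044, within a range of 0.044 to 0.306 over 17 alternatives. Oas1a (ENSMUSG00000052776) was at 38.8, 28.4, 26.6 and 22.6 CPM in PDT 1 to PDT 4, against 13.9, 25.3, 14.3 and 13.3 CPM in PBS 1 to PBS 4. PDT 4 was below PBS 2 and above the other PBS libraries, and the log2 difference was 0.80 ± 0.24 (SE, adjusted p = 0.135). DESeq2 gave Oas1a an adjusted p of 0.0348 (range over alternatives 0.0348 to 0.312). Of the 50-base stretches of the longest Oas1a transcript, 57.6% also occur in Oas1g, so the division of reads between the 2 genes is uncertain. Their summed level was 36.2 ± 8.07 CPM in PDT and 22.4 ± 6.04 CPM in PBS (SD, n = 4 each), a ratio of 1.61.

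Oas3 (ENSMUSG00000032661) averaged 7.56 ± 1.99 CPM in PDT and 7.55 ± 2.12 CPM in PBS (SD, n = 4 each), and its difference of 0.0012 ± 0.29 (SE, log2 scale, edgeR adjusted p = 0.999) had a 95% interval of −0.63 to 0.63. PDT 1, PDT 2 and PDT 3 lay between 8.25 and 8.83 CPM and PDT 4 was at 4.59 CPM. Oasl2 (ENSMUSG00000029561) was at 38.8, 45.4, 38.1 and 22.8 CPM in PDT 1 to PDT 4, against 22.5, 42.5, 20.6 and 26.8 CPM in PBS 1 to PBS 4. PBS 2 reached the level of PDT 1 to PDT 3 and PDT 4 that of the other PBS libraries, with a log2 difference of 0.37 ± 0.25 (SE, adjusted p = 0.524). Oasl1 (ENSMUSG00000041827), known in mice as a translational repressor of Irf7, ranged over 10.5 to 14.7 CPM in PDT and 8.44 to 14.1 CPM in PBS and had a log2 difference of 0.10 ± 0.20 (SE, adjusted p = 0.863). In the family 2 of 5 genes had an unadjusted p under 0.05 in edgeR, DESeq2 called the same 2 and limma-voom 0.

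The Ifit genes encode proteins that bind viral RNA lacking host cap marks and block its translation. For all 4 of them PDT 4 was the lowest PDT library. Ifit1 (ENSMUSG00000034459) was at 25.9, 21.4, 27.5 and 7.72 CPM in PDT 1 to PDT 4, against 16.5, 20.3, 16.4 and 17.6 CPM in PBS 1 to PBS 4. PDT 1 to PDT 3 were above every PBS library and PDT 4 was below every one, so that the log2 difference was 0.22 ± 0.31 (SE, adjusted p = 0.795) with all libraries and 0.50 ± 0.17 (adjusted p = 0.253) without PDT 4. Ifit2 (ENSMUSG00000045932) was at 25.2, 26.6, 15.2 and 11 CPM in PDT 1 to PDT 4, against 21.7, 15.6, 13.2 and 23.1 CPM in PBS 1 to PBS 4. The groups overlapped, with PDT 4 the lowest of the 8, and the log2 difference was 0.086 ± 0.29 (SE, adjusted p = 0.927). Ifit3 (ENSMUSG00000074896) was at 31.9, 24, 26.4 and 12.8 CPM in PDT 1 to PDT 4, against 19, 18.4, 13.6 and 31.1 CPM in PBS 1 to PBS 4. Here PBS 4 was within the range of PDT 1 to PDT 3, and the log2 difference was 0.21 ± 0.29 (SE, adjusted p = 0.788). Ifit3b (ENSMUSG00000062488) had the largest difference of the family, 0.68 ± 0.37 (SE, adjusted p = 0.395), at 3.71 to 8.03 CPM in PDT and 2.34 to 5 CPM in PBS. Of the 50-base stretches of Ifit3 and Ifit3b, 51.2% and 45% occur in another gene, nearly all of them in the partner gene, and the pair summed to 29.1 ± 9.65 CPM in PDT and 23.8 ± 8.38 CPM in PBS (SD, n = 4 each). In edgeR 0 of the 4 Ifit genes had an unadjusted p under 0.05, and DESeq2 and limma-voom called 0.

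Mx1 and Mx2 encode dynamin-like GTPases of the antiviral response, and Mx2 was low in both groups. Mx1 (ENSMUSG00000000386) was at 7.18, 8.49, 6.82 and 2.96 CPM in PDT 1 to PDT 4, against 6.31, 3.81, 4.05 and 2.44 CPM in PBS 1 to PBS 4. The highest values were those of PDT 1, PDT 2 and PDT 3, PDT 4 was within the PBS range, and the log2 difference was 0.61 ± 0.38 (SE, adjusted p = 0.471). Mx2 (ENSMUSG00000023341) had 56, 84, 44 and 40 reads in PDT 1 to PDT 4, against 46, 88, 26 and 38 reads in PBS 1 to PBS 4. Its difference of 0.054 ± 0.56 (SE, log2 scale, edgeR adjusted p = 0.977) had a 95% interval of −1.17 to 1.28. The interval includes the value of Isg15, so that a difference of that size was not excluded. In edgeR 0 of the pair had an unadjusted p under 0.05, and DESeq2 and limma-voom called 0.

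Isg15 had the largest difference of the 30 genes. Isg15 (ENSMUSG00000035692) encodes the ubiquitin-like protein that is joined to other proteins during the response. It was at 21.6, 14.8, 22.2 and 13.7 CPM in PDT 1 to PDT 4, against 9.96, 10.5, 4.15 and 9.07 CPM in PBS 1 to PBS 4. All PDT libraries were above all PBS libraries, including PDT 4, and the log2 difference was 1.10 ± 0.29 (SE, adjusted p = 0.102), with a 95% interval of 0.47 to 1.73. DESeq2 gave an adjusted p of 0.0118, within a range of 0.0118 to 0.2497 over 17 alternatives, 2 of which called it. Usp18 (ENSMUSG00000030107), the protease that removes Isg15 and blocks the receptor, was at 8.14, 7.82, 9.03 and 4.67 CPM in PDT 1 to PDT 4, against 7.08, 5.03, 4.73 and 6.46 CPM in PBS 1 to PBS 4. PDT 1 to PDT 3 were above the PBS range and PDT 4 below it, with a log2 difference of 0.35 ± 0.27 (SE, adjusted p = 0.586). Herc6 (ENSMUSG00000029798), which in mice is the ligase that attaches Isg15, ranged over 5.69 to 7.69 CPM in PDT and 3.75 to 9.61 CPM in PBS, with PBS 2 the highest of the 8 libraries and a log2 difference of 0.28 ± 0.33 (SE, adjusted p = 0.743). Of its 50-base stretches 23.8% occur in the predicted gene Gm45193, so its count is uncertain. In edgeR 1 of these 3 genes had an unadjusted p under 0.05 (Isg15), DESeq2 called 1 and limma-voom 0.

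The other effectors held the smallest p of the 30, that of Bst2, and 3 of the 4 genes that were lower in PDT. Bst2 (ENSMUSG00000046718) encodes tetherin, a membrane protein that holds budding viruses on the cell, and was at 97.1, 63.8, 82.4 and 91.1 CPM in PDT 1 to PDT 4, against 31.8, 63.1, 31.4 and 51.9 CPM in PBS 1 to PBS 4. Its groups did not overlap, although PDT 2 exceeded PBS 2 by little, and the log2 difference was 0.91 ± 0.23 (SE, adjusted p = 0.0985). DESeq2 gave Bst2 an adjusted p of 0.00519, within a range of 0.00519 to 0.245 over 17 alternatives. In contrast to most members, Bst2 was high in PDT 4. Rtp4 (ENSMUSG00000033355), a chaperone of G protein-coupled receptors that also acts as a brake on interferon signalling, was at 47.9, 32.5, 35.3 and 19.5 CPM in PDT 1 to PDT 4, against 19.9, 22.6, 17.3 and 19.7 CPM in PBS 1 to PBS 4. PDT 1 to PDT 3 were above every PBS library, PDT 4 was within the PBS range, and the log2 difference was 0.77 ± 0.23 (SE, adjusted p = 0.137). DESeq2 gave Rtp4 an adjusted p of 0.0367, and over the alternatives it ran from 0.0367 to 0.314. Of the 50-base stretches of Rtp4, 13.6% occur in Gm45338, so part of its count is uncertain. Parp14 (ENSMUSG00000034422), a mono-ADP-ribosyltransferase, was at 26.6, 35.4, 37.6 and 29.4 CPM in PDT 1 to PDT 4, against 23.3, 33.3, 19.4 and 18.4 CPM in PBS 1 to PBS 4. PBS 2 lay among the PDT libraries, and the log2 difference was 0.45 ± 0.20 (SE, adjusted p = 0.295).

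Ifi27l2a (ENSMUSG00000079017), a small hydrophobic protein of mitochondria and the nuclear envelope, was at 120.3, 79.1, 106 and 53.3 CPM in PDT 1 to PDT 4, against 64.9, 66.8, 41.9 and 76.5 CPM in PBS 1 to PBS 4. In PDT 4 it was below 3 of the 4 PBS libraries, in the other PDT libraries above all of them, and the log2 difference was 0.52 ± 0.25 (SE, adjusted p = 0.319). Rsad2 (ENSMUSG00000020641) encodes viperin, which makes a chain-terminating nucleotide, and ranged over 5.57 to 14.8 CPM in PDT and 5.99 to 11.3 CPM in PBS, with a log2 difference of 0.36 ± 0.31 (SE, adjusted p = 0.625). Its genomic neighbour Cmpk2 (ENSMUSG00000020638), a mitochondrial kinase that supplies its substrate, ranged over 4.4 to 6.83 CPM in PDT and 2.89 to 8.27 CPM in PBS, with a difference of 0.13 ± 0.38 (SE, adjusted p = 0.916). For both, PDT 4 was the lowest PDT library and PBS overlapped PDT. Trim30a (ENSMUSG00000030921), a mouse ligase of the TRIM family, ranged over 21.2 to 43.2 CPM in PDT and 17 to 45 CPM in PBS and differed by 0.26 ± 0.28 (SE, adjusted p = 0.727). Xaf1 (ENSMUSG00000040483), a pro-apoptotic partner of XIAP, ranged over 12.3 to 23.1 CPM in PDT and 13.3 to 18.9 CPM in PBS and differed by 0.13 ± 0.21 (SE, adjusted p = 0.816). Eif2ak2 (ENSMUSG00000024079), the kinase PKR that stops translation on double-stranded RNA, spanned nearly the same range in both groups, at 25.1, 32.1, 30.8 and 27.5 CPM in PDT 1 to PDT 4, against 30.3, 30.4, 30.6 and 25.7 CPM in PBS 1 to PBS 4, with a log2 difference of −0.019 ± 0.14 (SE, adjusted p = 0.967). Samd9l (ENSMUSG00000047735), an inhibitor of translation and growth, was lower in PDT on average, at 92.8 ± 16.1 CPM in PDT and 112 ± 31.1 CPM in PBS (SD, n = 4 each). Its log2 difference was −0.27 ± 0.21 (SE, adjusted p = 0.567). Ifi44 (ENSMUSG00000028037), a cytoplasmic antiviral protein, was at 3.19, 3.82, 4.86 and 1.47 CPM in PDT 1 to PDT 4, against 3.16, 7.68, 4.15 and 4.77 CPM in PBS 1 to PBS 4. It had the most negative difference of the 30, −0.57 ± 0.41 (SE, adjusted p = 0.554), with PDT 4 lowest and PBS 2 highest, and its 95% interval was −1.47 to 0.34. In edgeR 3 of these 11 effectors had an unadjusted p under 0.05 (Bst2, Rtp4 and Parp14), DESeq2 called 2 (Bst2 and Rtp4) and limma-voom 0.

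**Figure D2:**
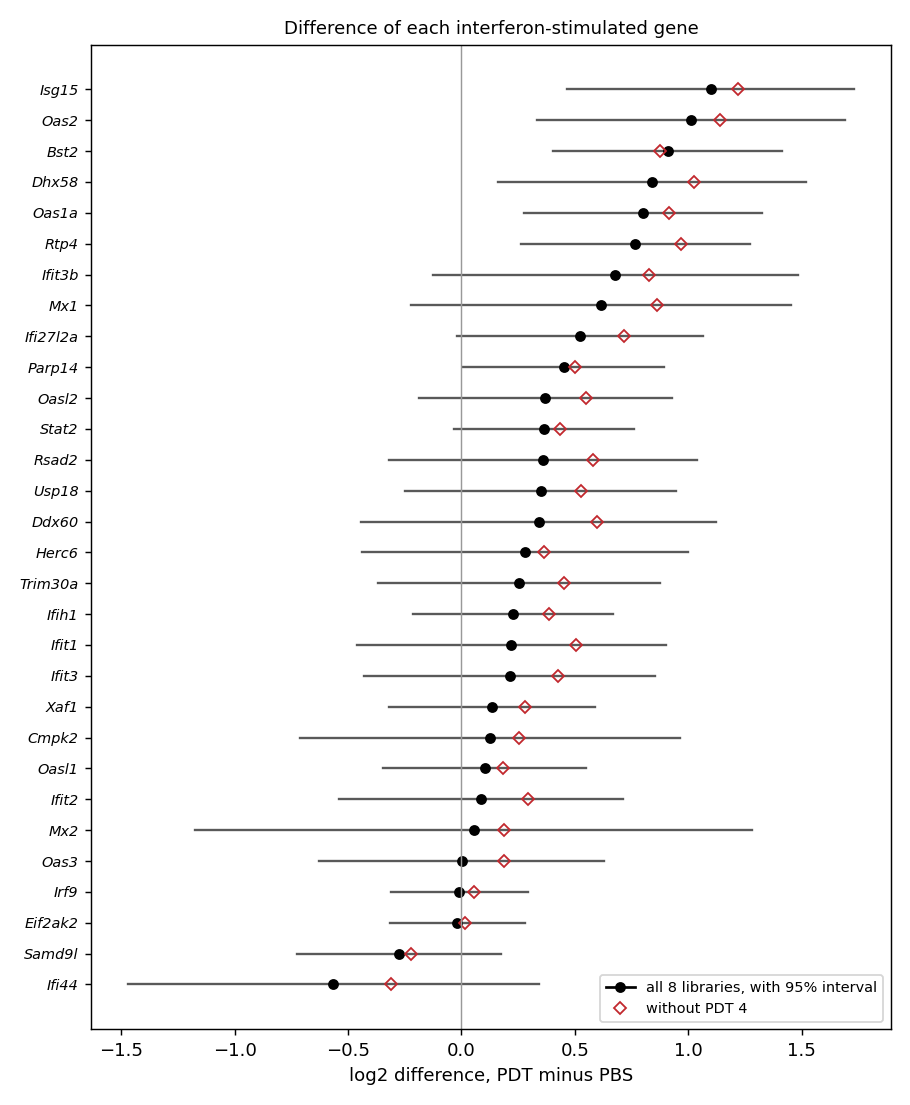
Log2 difference, PDT minus PBS, of each of the 30 genes from edgeR with all 8 libraries (black, with its 95% interval) and without PDT 4 (open red diamonds), ordered by size. Isg15 at 1.10 leads and Ifi44 at −0.57 is last, and most diamonds lie to the right of the black points.

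Library by library, the treated tumours were not alike. The median of the 30 genes, as log2(CPM + 0.5) relative to the PBS mean of each gene, was 0.53 for PDT 1, 0.44 for PDT 2, 0.56 for PDT 3 and −0.20 for PDT 4. The PBS libraries were at 0.025, 0.19, −0.197 and −0.0087 for PBS 1 to PBS 4. The corresponding medians over all tested genes were 0.0039 to 0.026 in PDT and −0.0196 to 0.016 in PBS. PDT 4 was the lowest PDT library for 25 of the 30 genes (83.3%), against 25.8% of all tested genes, and the lowest of all 8 for 10. The Ifit genes had the lowest family median in PDT 4, −0.64, and the ISG15 system the highest, 0.13. Within PBS, PBS 2 was the highest library for 14 of the 30 genes (46.7%, against 22.6% of all tested genes). PBS 3 was the lowest for 15 of them.

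**Figure D3:**
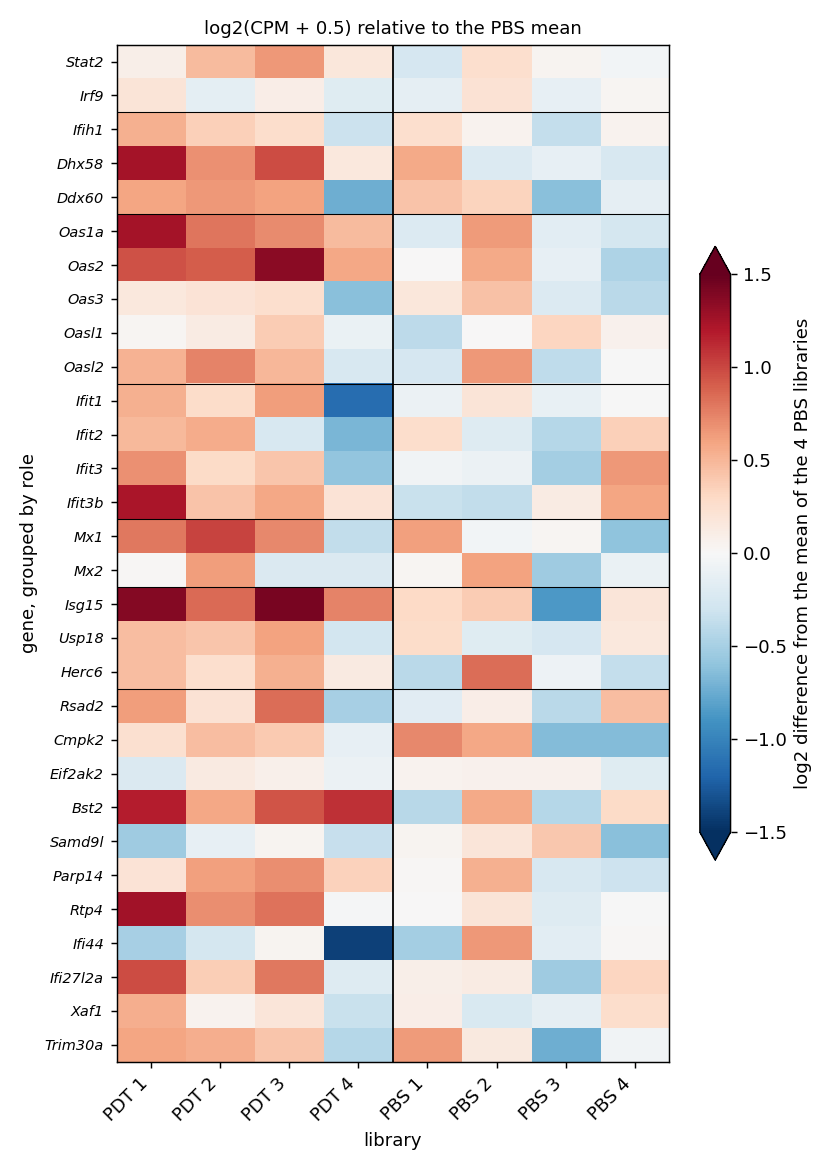
Log2(CPM + 0.5) of each of the 30 genes in each library relative to its mean over the 4 PBS libraries, with PDT left of PBS and colours capped at 1.5. The columns PDT 1 to PDT 3 are mostly red, the column PDT 4 is mostly pale or blue with its strongest red in Bst2 and Isg15, and PBS 2 is red for genes such as Oas1a, Oasl2 and Herc6.

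Without PDT 4 the median log2 difference of the 30 genes was 0.48 and 28 of them were higher in PDT, against 49.9% of the genes tested in that fit, with Samd9l at −0.22 and Ifi44 at −0.31 the exceptions. At an unadjusted p under 0.05 there were then 12 members by edgeR, all higher, against 6.84% of tested genes, and 0 at an adjusted p of 0.05. PDT 1 to PDT 3 lay above all 4 PBS libraries for 12 of the 30 genes (40% against 6.54% of tested genes). PDT 4 was singled out here for its low values of these genes, so leaving it out raises their counts by construction, and these values are a description only. These 12 were Ifih1, Dhx58, Ddx60, Oas1a, Oas2, Ifit1, Mx1, Isg15, Usp18, Bst2, Rtp4 and Ifi27l2a. Rtp4 then had the smallest adjusted p of the 30, 0.0989, with a log2 difference of 0.97 ± 0.18 (SE). Without PBS 2 the median was 0.39 and 10 members had an unadjusted p under 0.05, against 13.9% of tested genes in either direction. PBS 2 was the highest PBS library for 14 of the 30 genes, so leaving it out also raises the differences of those genes by construction. Without PBS 1 the median was 0.31 and 7 members had an unadjusted p under 0.05, against 15.5% of tested genes. The median was lowest without PDT 3, at 0.22 with 25 members higher, and was 0.23 without PBS 3, with 23 higher. In both of these fits 6 members had an unadjusted p under 0.05, against 13.7% of tested genes without PDT 3 and 13.8% without PBS 3, in either direction. In the same libraries PDT 4 had the highest share of Rn18s-rs5 reads given above and the highest number of genes with at least 1 read, 22317 against 19686 to 20857 in the other PDT libraries. Whether these have a part in the lower interferon-stimulated genes of PDT 4 was not tested.

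Levels per transcript length spanned a wide range among the 30 genes. On the scale of CPM per kilobase of exon, Ifi27l2a was the most abundant at 194 in PDT and 135 in PBS, followed by Bst2 at 92.6 in PDT and 49.3 in PBS. Isg15 was at 23.9 in PDT and 11.2 in PBS, Samd9l at 17.1 in PDT and 20.7 in PBS, Rtp4 at 15.9 in PDT and 9.32 in PBS and Oas1a at 15.4 in PDT and 8.87 in PBS. Samd9l thus stood below Isg15 in PDT and above it in PBS, a difference in order that was not tested. Mx2 was the lowest in both groups, at 0.369 in PDT and 0.355 in PBS, and Herc6, Ifi44 and Ddx60 were also low, Herc6 at 0.724 in PDT and 0.595 in PBS, Ifi44 at 0.544 in PDT and 0.806 in PBS and Ddx60 at 0.996 in PDT and 0.787 in PBS. Among the Ifit genes the order was Ifit3, Ifit1, Ifit2 and Ifit3b in both groups, and among the Oas genes it was Oas1a, Oasl2, Oasl1, Oas2 and Oas3 in PDT, with Oas3 above Oas2 in PBS.

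Upstream of these genes, transcripts of the interferons themselves were nearly absent. Of 20 interferon alpha, beta, epsilon, kappa, zeta and lambda genes in the table, 18 had 0 reads in all 8 libraries, among them every Ifna gene listed and Ifnab. Ifnb1, which encodes interferon beta, had 0, 0, 6 and 0 reads in PDT 1 to PDT 4, against 0, 0, 0 and 0 reads in PBS 1 to PBS 4. The interferon zeta gene Ifnz had 2 reads in PDT 4 and 0 elsewhere. A count of 0 allows up to 3 reads, or 0.0665 to 0.07645 CPM in the PDT libraries and 0.0715 to 0.0872 CPM in the PBS libraries, from counting error alone. This holds if reads were counted singly. Low counts were mostly even, so pairs may have been counted as 2 reads, and the floor would then be higher. Ifng, which encodes interferon gamma, had 4, 0, 4 and 5 reads in PDT 1 to PDT 4, against 0, 29, 0 and 8 reads in PBS 1 to PBS 4, so that PBS 2 held most of its reads.

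The receptor genes differed in which of them was higher. Ifnar1 averaged 63.9 ± 5.82 CPM in PDT and 66.1 ± 8.06 CPM in PBS (SD, n = 4 each), a log2 difference, PDT minus PBS, of −0.049 ± 0.13 (SE, adjusted p = 0.902) by edgeR. Ifnar2, the subunit that sets the binding strength, was at 14.3, 11.6, 13.5 and 16.5 CPM in PDT 1 to PDT 4, against 6.18, 12.5, 6.7 and 9.22 CPM in PBS 1 to PBS 4. PDT 2 was below PBS 2 and the other PDT libraries were above all of PBS, with a log2 difference of 0.69 ± 0.24 (SE, adjusted p = 0.188). Jak1 averaged 169 ± 24.9 CPM in PDT and 169.9 ± 13.8 CPM in PBS and Tyk2 22.4 ± 4.26 CPM in PDT and 22.1 ± 5.89 CPM in PBS (SD, n = 4 each), with log2 differences of −0.0061 ± 0.13 and 0.021 ± 0.21 (SE). Of the lambda receptor genes, Ifnlr1 was lower in every PDT library, at 1.43 to 2.63 CPM in PDT and 3.05 to 3.7 CPM in PBS, a separation seen in 5.12% of tested genes, with a log2 difference of −0.77 ± 0.37 (SE, adjusted p = 0.324). Il10rb was barely detected, with 3, 14, 38 and 15 reads in PDT 1 to PDT 4, against 15, 0, 0 and 4 reads in PBS 1 to PBS 4. Of 8 tested genes of the list of receptors and kinases, 4 were higher and 4 lower in PDT, and 0 passed in edgeR, 1 at an unadjusted p under 0.05 (Ifnar2), with 0 by DESeq2 and limma-voom.

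All 6 interferon regulatory factors of the list had a positive difference, with a median of 0.33. Irf7, the factor that amplifies interferon alpha production and is itself induced, was at 61.1, 45.9, 58.6 and 30.7 CPM in PDT 1 to PDT 4, against 12.3, 33.9, 16.4 and 35.7 CPM in PBS 1 to PBS 4. PDT 1 to PDT 3 were above every PBS library, PDT 4 was below PBS 2 and PBS 4, and the log2 difference was 0.9998 ± 0.33 (SE, adjusted p = 0.166). Irf5, which acts downstream of Toll-like receptors in myeloid cells, was at 43.7 ± 3.28 CPM in PDT and 32.4 ± 4.41 CPM in PBS (SD, n = 4 each) with no overlap, and its log2 difference was 0.43 ± 0.14 (SE, adjusted p = 0.149). Irf8, a factor of macrophages and dendritic cells, differed by 0.53 ± 0.20 (SE, adjusted p = 0.212). In edgeR 0 of the 6 passed and 3 had an unadjusted p under 0.05, while DESeq2 called 1 (Irf7) and limma-voom 0.

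Among genes that restrain interferon signalling, Ptpn6 was the 1 pathway gene that passed in edgeR. Ptpn6 encodes SHP-1, a phosphatase of blood cells that acts on Jak kinases. It rose to 70.8, 60.01, 62.4 and 68 CPM in PDT 1 to PDT 4, against 30.1, 29.5, 28.7 and 32.1 CPM in PBS 1 to PBS 4, a difference on the log2 scale of 1.12 ± 0.12 (SE, adjusted p = 0.0119) by edgeR. The groups were far apart, and edgeR's call was lost without PDT 1 (adjusted p = 0.0703) and without PBS 3 (0.0657), with log2 differences of 1.08 and 1.10. Socs1, a feedback inhibitor of Jak kinases, had a log2 difference of 0.71 ± 0.36 (SE, adjusted p = 0.35), and Pias4, a SUMO ligase, one of 0.45 ± 0.20 (SE, adjusted p = 0.299). Of the 9 tested genes of this list 6 were higher and 3 lower, and DESeq2 and limma-voom called 1 each, Ptpn6.

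The conjugation and sensing genes outside the 30 were mostly higher. Uba7, the enzyme that activates Isg15, averaged 18 ± 1.67 CPM in PDT and 14.2 ± 2.33 CPM in PBS (SD, n = 4 each), a difference on the log2 scale of 0.34 ± 0.17 (SE, adjusted p = 0.342) by edgeR. Of the 6 genes of Isg15 conjugation, 3 of which are among the 30, 5 were higher, with a median of 0.31. Among 8 RNA sensing genes 6 were higher, with a median of 0.22. Tlr7, the endosomal sensor of single-stranded RNA, was at 21.8, 19.7, 15.5 and 11.3 CPM in PDT 1 to PDT 4, against 12.5, 7.53, 5.81 and 8.61 CPM in PBS 1 to PBS 4. PDT 4 was below PBS 1, the other PDT libraries were above all of PBS, and the log2 difference was 0.99 ± 0.27 (SE, adjusted p = 0.109). Ikbke, a kinase that activates Irf3 and Irf7, differed by 0.75 ± 0.21 (SE, adjusted p = 0.115) and Zbp1, a sensor of Z-form nucleic acid, by 0.90 ± 0.31 (SE, adjusted p = 0.174). In edgeR 0 of the RNA sensing genes passed and 3 had an unadjusted p under 0.05, while DESeq2 called these 3 and limma-voom 0. Over the alternatives the adjusted p of Tlr7 ran from 0.0212 to 0.275, that of Ikbke from 0.0319 to 0.273 and that of Zbp1 from 0.0361 to 0.379.

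A longer list of 74 other interferon-stimulated genes were also more often higher than lower. Some of them, such as Irf7, Zbp1 and Uba7, are also in the lists above. Of the 72 that were tested, 49 were higher and 23 lower, with a median of 0.17. Without PBS 2, 60 were higher and 12 lower, with a median of 0.30, where 50.8% of all genes tested in that fit were higher. PBS 2 was the highest PBS library for 38 of the 72, so leaving it out raises the differences of those genes by construction. In edgeR 0 passed, 17 were higher and 1 lower at an unadjusted p under 0.05 (8.63% and 7.87% of all tested genes), and DESeq2 called 8 and limma-voom 0. The smallest p-values were those of Slfn1, Sp100 and Slfn5. Slfn1, a Schlafen gene of leukocytes, was at 29.3, 23.8, 24.2 and 10.4 CPM in PDT 1 to PDT 4, against 9.31, 10.1, 4.73 and 8.43 CPM in PBS 1 to PBS 4, and its log2 difference was 1.43 ± 0.32 (SE, adjusted p = 0.0791). In Slfn1 every PDT library was above every PBS library, although PDT 4 exceeded PBS 2 by little. Sp100, a nuclear body protein, and Slfn5, another Schlafen gene, also did not overlap, with log2 differences of 0.97 ± 0.23 (SE, adjusted p = 0.0891) and 0.88 ± 0.22 (SE, adjusted p = 0.0978).

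Of 17 genes induced mainly by interferon gamma, 3 were higher and 14 lower in PDT, with a median log2 difference of −0.14. That direction turned when 1 library, PBS 2, was left out. PBS 2 was the highest PBS library for all 17, and without it 16 were higher and 1 lower, with a median of 0.53. In that edgeR fit 9 had an unadjusted p under 0.05, all higher, against 13.9% of tested genes in either direction. Since PBS 2 was the highest PBS library for these genes, leaving it out raises their differences by construction, and these values are a description only. With PBS 2 in the fit, 0 had an unadjusted p under 0.05 in edgeR or were called by DESeq2 or limma-voom. Iigp1, a GTPase that attacks the vacuoles of intracellular parasites, was at 25.3, 22.1, 25.4 and 24.4 CPM in PDT 1 to PDT 4, against 24.2, 95.7, 13.9 and 11.6 CPM in PBS 1 to PBS 4. PBS 2 stood far above the other 7 libraries, and the log2 difference was −0.58 ± 0.54 (SE, adjusted p = 0.657). Cxcl9, a chemokine that draws T cells, was at 13.9, 21.7, 21.6 and 25 CPM in PDT 1 to PDT 4, against 7.95, 115, 18.2 and 5.99 CPM in PBS 1 to PBS 4. Here too PBS 2 was far above the rest, and the log2 difference was −0.84 ± 0.75 (SE, adjusted p = 0.637), or 0.94 without PBS 2. Cd74, the invariant chain of MHC class II, averaged 461 ± 207 CPM in PDT and 641 ± 192 CPM in PBS (SD, n = 4 each), a log2 difference of −0.48 ± 0.29 (SE, adjusted p = 0.453). Some genes of this list, such as Socs1, are also in the lists above. The difference between this list and the 30 genes was not tested.

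**Figure D4:**
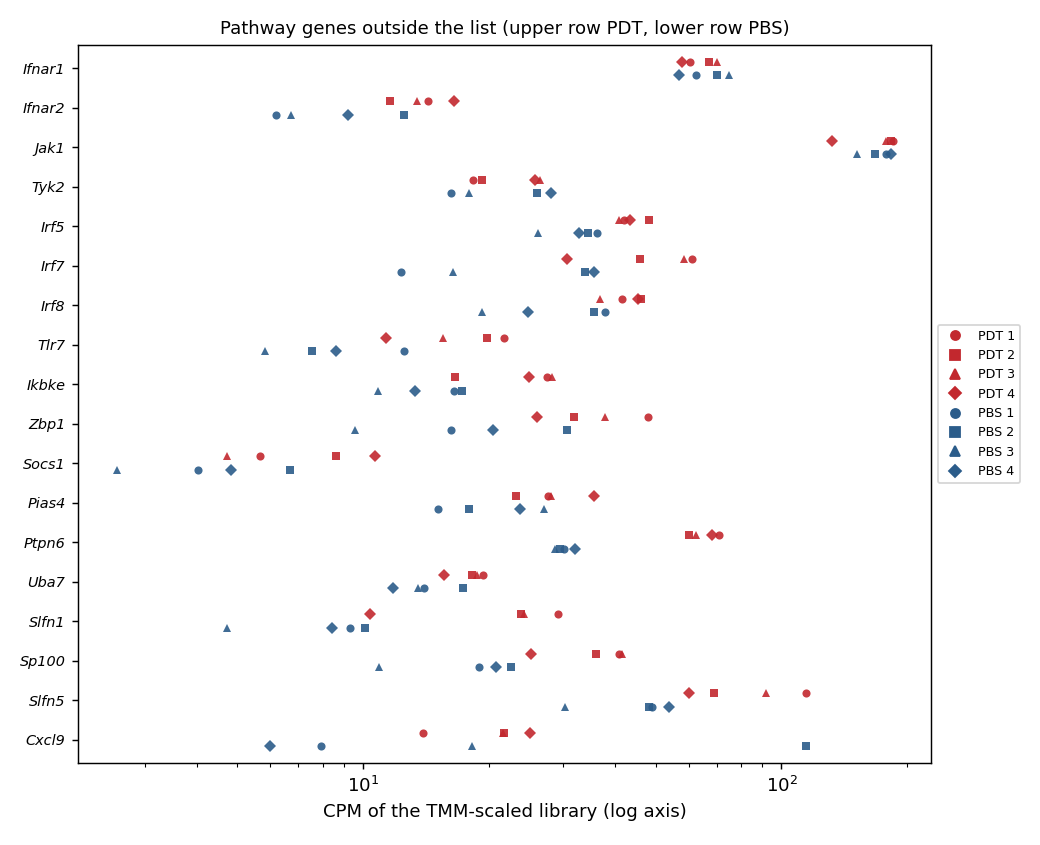
Expression of 18 pathway genes outside the 30 in each library, in CPM on a log axis, with PDT in the upper row (red) and PBS in the lower row (blue). Ptpn6 is the gene with the widest gap between the groups, and the square for PBS 2 is the rightmost point of Cxcl9.

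Markers of other cells differed between the same libraries. All 14 macrophage and monocyte markers were higher in PDT, with a median log2 difference of 0.75. In edgeR 12 of the 14 had an unadjusted p under 0.05, and DESeq2 called 8 and limma-voom 4. Cd68 was the 1 marker that passed in edgeR, a call lost without PDT 1, PDT 3, PDT 4 or PBS 3. Of the 8 tested neutrophil markers 6 had an unadjusted p under 0.05 in edgeR, and DESeq2 called 2 and limma-voom 1. The summed levels are given next for the macrophage and monocyte markers. Their summed level was 5212 to 7029 CPM in PDT and 2132 to 4294 CPM in PBS. Most of the sum was Lyz2, a lysozyme gene, at 3105 to 4441 CPM in PDT and 1132 to 2319 CPM in PBS. In PDT 4 the sum was 5451 CPM, and PDT 4 was the lowest PDT library for 8 of the 14 markers, among them the monocyte marker Ly6c2 at 10.9, 12, 14.7 and 6.04 CPM in PDT 1 to PDT 4, against 1.14, 3.96, 1.21 and 1.57 CPM in PBS 1 to PBS 4. All 8 tested neutrophil markers were higher, with summed levels of 174 to 614 CPM in PDT and 92.0 to 237 CPM in PBS, although Ly6g, the defining gene of these cells, was at 0 to 0.51 CPM in PDT and 0 to 0.473 CPM in PBS. Of the T cell markers 7 of 8 were higher and of the NK cell markers 7 of 7. At an unadjusted p under 0.05 in edgeR were 2 T cell markers and 1 NK cell marker, where 8.63% of all tested genes were higher at that level. The lower T cell marker was Trac, a receptor chain, with a log2 difference of −0.18 ± 0.36 (SE, adjusted p = 0.863). Of 6 conventional dendritic cell markers 5 were lower, with a median of −0.37 and 0 at an unadjusted p under 0.05. T cell markers summed to 18.96 to 24.1 CPM in PDT and 9.20 to 17.2 CPM in PBS, and NK cell markers to 11.2 to 17.6 CPM in PDT and 2.16 to 6.80 CPM in PBS. The defining gene of plasmacytoid dendritic cells, the main source of interferon alpha, was low throughout, with Siglech at 0.0892 to 1.63 CPM in PDT and 0.0526 to 3.29 CPM in PBS and Ccr9 at 0 to 0.561 CPM in PDT and 0 to 0.429 CPM in PBS, and of 5 tested markers of these cells 1 was higher. Erythroid markers were lower in 5 of 5, at 590.5 to 1353 CPM in PDT and 808.5 to 4437 CPM in PBS. Skeletal muscle markers were higher in 5 of 5, with a median log2 difference of 1.65. Their summed level was 138.5 CPM in PDT 4 and 387.7 to 3144 CPM in the other PDT libraries, against 48.3 to 307 CPM in PBS 1, PBS 3 and PBS 4 and 1272 CPM in PBS 2. PDT 4 was the lowest PDT library and PBS 2 the highest PBS library for all 5 of them, and without PDT 2 the median was −0.41, with 2 higher and 3 lower. Epithelial markers summed to 3273 to 6503 CPM in PDT and 3744 to 7629 CPM in PBS. The macrophage marker Fcgr1 is also in the longer list of other interferon-stimulated genes. The part of these cells in the differences of the interferon-stimulated genes was not tested.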

How the data were processed

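RNA was measured in 8 bulk libraries, 4 of PDT and 4 of PBS tumours. Per the labels' protocols, ribosomal RNA was depleted from total RNA and directional libraries were made. Per the submitters' processing notes, cutadapt 4.6, STAR 2.7.11b and build GRCm39 were used. No source used here names the counting tool or its strand setting. The authors deposited whole-number counts per gene, without normalisation. Of the values from 1 to 20, 77.9% to 83.8% were even in each library, so pairs may have been counted as 2 reads, and an alternative divided the counts by 2. Gene rows without a symbol (484) held 0.0128% to 0.0176% of reads.

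CPM values were computed here from these counts with TMM scaling. The main test was edgeR 4.0.16 (R 4.3.3; filterByExpr, quasi-likelihood) over all 16588 tested genes, with Benjamini-Hochberg adjustment at 0.05, and every p in the text for a log2 difference with its SE is from it. The biological coefficient of variation was 0.392. DESeq2 1.42.0 and limma 3.58.1 (voom with quality weights) were alternatives, as were other scalings and filters, a replicate block, a correction for GC content and length, and leaving out each library. Replicate numbers in the titles are shared by the groups and did not pair the samples. Library deviations used a pseudocount of 0.5. Intervals and floors cover counting error or sample spread only. Replicates of a group were not duplicates of each other, with a chi-square per degree of freedom of 62.1 to 129. The edgeR step was checked on simulated counts.

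All 30 genes are described. Of the pathway lists, the text names genes with an adjusted p under 0.05, the 3 smallest p of each list, and always Ifnb1, the Ifna genes, Ifnar1, Ifnar2, Jak1, Tyk2 and Irf7; 1 further gene that the rule names is not reported here. The members and lists were chosen with earlier results of these data known. Iigp1, Ifng, Ifnz, Cd68 and the other marker genes were named after their values were seen. Exon lengths and stretches of 50 bases shared between genes came from GENCODE M21 transcripts, and promoter windows from RefSeq on GRCm38.p6, read with Python 3.11.15 and Biopython 1.88. An annotation of GRCm39 was not used here.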

Additional observations from a re-analysis of the deposited data

Results flagged for a closer look

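In 7 of 102 groups of 4 libraries, made up of the 30 genes and the named pathway genes in PDT and in PBS, 1 library stood far from the other 3 by Dixon's test. Chance flags about 5% of such groups, and among the 30 genes 5 of 60 groups were flagged. In PDT, PDT 4 was the low library for Ddx60, at 3.739 CPM with the other PDT libraries at 10.15 to 10.55 CPM. It was also low for Oas3, at 4.594 CPM with the others at 8.247 to 8.831 CPM, and for Jak1, at 132 CPM with the others at 178 to 184.3 CPM. In PBS, PBS 2 was the high library for Oas1a, at 25.34 CPM with the other PBS libraries at 13.32 to 14.35 CPM. PBS 2 was likewise high for Cxcl9, at 114.6 CPM with the others at 5.99 to 18.25 CPM. PBS 1 was the high library for Dhx58, at 7.347 CPM with the others at 3.983 to 4.391 CPM. PBS 4 was the low library for Eif2ak2, at 25.73 CPM with the others at 30.26 to 30.55 CPM.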

How the results depend on the processing

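The number of genes called over the whole table depended strongly on the method. It was 39 in edgeR, 69 with upper quartile scaling, 534 without the count filter, 88 with at least 1 CPM in 4 samples, 182 with the replicate block, 869 with DESeq2, 167 with limma-voom, 67 with counts divided by 2 and 14 with the GC and length correction. It ran from 0 (without PDT 1 and without PBS 3) to 122 (without PBS 4) when 1 library was left out. Of the 30 interferon-stimulated genes 0 were called, but 4 were without the count filter and 5 by DESeq2. At an unadjusted p there were 7, and 6 to 12 when 1 library was left out, with 12 without PDT 4 and 10 without PBS 2. The share of all tested genes at that level, in either direction, was 16.5% and 12.2% to 16.9% when 1 library was left out. The number of members higher in PDT was 26, with 23 to 28 when 1 library was left out and 24 to 27 otherwise. Their median log2 difference of 0.31 ran from 0.22 to 0.48.

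Signs turned for genes near 0, and also for Cxcl9, whose log2 difference in the main fit was −0.84. Irf9 was 0.0027 with upper quartile scaling and 0.0006 without the filter. Oas3 was −0.0032 with the 1 CPM filter, −0.0028 with the block, −0.011 by limma-voom, −0.0023 with counts divided by 2 and −0.0709 with the GC and length correction. That correction, which moved the median of all genes to −0.0841, gave −0.157 for Oasl1, −0.132 for Mx2, 0.0502 for Eif2ak2, 0.0133 for Jak1 and −0.0987 for Tyk2. Limma-voom gave −0.04 for Ifit2, −0.111 for Mx2 and 0.0016 for Eif2ak2. Jak1 was 0.0063 with upper quartile scaling and 0.0041 without the filter, and Cxcl9 was 0.24 with the block.

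With 1 library left out, the log2 difference ran from −0.071 to 0.0723 for Irf9, −0.117 to 0.189 for Oas3, −0.0135 to 0.226 for Oasl1 and −0.0894 to 0.292 for Ifit2. It ran from −0.256 to 0.398 for Mx2, −0.0787 to 0.411 for Cmpk2, −0.0624 to 0.053 for Eif2ak2 and −0.0229 to 0.279 for Xaf1. For pathway genes it ran from −1.18 to 0.94 for Cxcl9, −0.102 to 0.0191 for Ifnar1, −0.0556 to 0.106 for Jak1 and −0.0978 to 0.172 for Tyk2. The cause was not tested. Of the 240 such values of the 30 genes, 217 kept their sign and call and 23 turned sign.

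With the replicate block 0 members were called, 7 had an unadjusted p under 0.05 and 25 were higher, with a median of 0.31. Same-numbered libraries deviated together with correlations of 0.0385 to 0.069, and 0 of the 4 PDT libraries correlated best with the PBS library of its number. Leaving out each library for the pathway and marker lists was chosen after seeing the data, and it turned the direction of the interferon gamma list without PBS 2 (16 of 17 higher) and of the skeletal muscle list without PDT 2 (2 of 5 higher), and the medians of some lists near 0 turned as well. Low reads limit what can be said of Mx2, with 26 to 88 reads and an SE of 0.56, and of Il10rb, with 0 to 38 reads and an SE of 1.35.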
